A study of Mus musculus with 14 samples.

Results

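The transcription factor NF-κB is built from 5 subunits, and it switches on several of the genes that restrain it. In colonic macrophages of mice lacking *Il10ra*, the genes of 2 subunits and 4 inhibitors were expressed at a higher level than in WT. Of all genes tested, 8.7% were called higher in that comparison. The 10 genes examined did not pass the test between mice lacking *Il10ra* alone and mice that also lacked *Ccr2*. In that test 0.0457% of all genes were called. The genes were chosen by name as the 5 subunits *Nfkb1*, *Rel*, *Rela*, *Nfkb2* and *Relb* and 5 inhibitors that NF-κB itself can induce, *Nfkbia*, *Nfkbie*, *Nfkbiz*, *Tnfaip3* and *Tnip3*. The files write the symbols in capitals (NFKB1, REL, RELA, NFKB2, RELB, NFKBIA, NFKBIE, NFKBIZ, TNFAIP3 and TNIP3). They are 10 of the 24982 genes listed in the count table. All 10 passed the filter on low counts, which left 13136 genes in the test.

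The macrophages were sorted by flow cytometry from the lamina propria of colon and cecum of 5-week-old C57BL/6 mice as live CD45+ CD103- Ly6G- CD64+ CD11b+ MHCII+ Ly6C- cells, and each library came from 1 mouse. All animals carried *Cdcs1*, a locus that confers susceptibility to colitis. WT mice (n = 4) carried *Cdcs1* with no knockout named, IL10RAKO mice (n = 4) were also *Il10ra* -/-, and DKO mice (n = 4) were *Il10ra* -/- and *Ccr2* -/-. A further WT mouse (mouse 11) and a single *Ccr2* -/- mouse (CCR2KO, mouse 6) had counts but no column in the authors' normalised table, and they are given apart. The knockouts were carried by the whole animal and not by the sorted cells alone, and whether the sequenced WT mice were heterozygous at either locus is not given in the sources used here. Mouse numbers are those of the sample labels, which give no batch, sex or litter for a mouse.

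Counted reads ranged from 13085287 to 21024878 in WT, from 15473135 to 20347283 in IL10RAKO and from 14054105 to 21216468 in DKO mice. WT mouse 11 had 12153000 and the CCR2KO mouse 17112375. Levels are given as CPM, the count of reads scaled to a common library total after TMM normalisation, and levels of the 10 genes are compared with each other only after division by exon length. *Il10ra* stood at 284 ± 70.1 CPM in WT (SD, n = 4), 7.41 ± 2.67 in IL10RAKO and 5.31 ± 2.12 in DKO. *Ccr2* stood at 593 ± 80.0, 476 ± 128 and 5.67 ± 1.22 CPM in the same order. In every library both targeted genes were at the level its genotype label calls for, with *Il10ra* at 182 CPM and *Ccr2* at 4.3 CPM in the CCR2KO mouse. All 10 macrophage markers examined had reads in every library, with a summed level of 51608 ± 5468 CPM in WT mice, 65388 ± 9792 CPM in IL10RAKO mice and 60264 ± 7310 CPM in DKO mice. Of these 10 markers, 2 were called in IL10RAKO against WT, where 15.8% of all genes were, with *Fcgr1* (the gene of CD64) and *H2-Ab1* higher. In DKO, where 18.5% of all genes were called, *Mertk* was higher and *Adgre1* (the gene of F4/80) and *Cx3cr1* were lower, from 740.1 to 358 CPM and from 389 to 169 CPM.

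NF-κB works as a dimer. In resting cells the dimers of p50 and RelA are held in the cytoplasm by IκB proteins, and signals from Toll-like, IL-1 and TNF receptors lead a kinase complex to mark IκB for destruction, which frees the dimer to enter the nucleus. A slower branch processes p100, the product of *Nfkb2*, to p52, which pairs with RelB. Because the genes for IκBα (*Nfkbia*) and A20 (*Tnfaip3*) are themselves targets of NF-κB, their mRNA is widely read as a sign of recent NF-κB activity. Interleukin-10 is known to limit the inflammatory response of intestinal macrophages to microbial products.

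The DNA sequence that NF-κB recognises is found close to the start sites of most of these genes. RefSeq promoters of build GRCm38.p6, each running from 250 bases before to 50 bases after a start site, were at hand for *Nfkb2*, *Rel*, *Rela*, *Nfkbia*, *Nfkbie*, *Tnfaip3* and *Tnip3* (10 promoters of 7 genes), and not for *Nfkb1*, *Relb* and *Nfkbiz*. Both strands were searched for the κB consensus, a decamer with degenerate positions, and overlapping matches were merged, so that a merged match can be 11 bases long. It was present in the promoter of 6 of the 7 genes, against 5.14% of all 27025 genes with a promoter. Counted by promoter, 8 of 10 held it, against 4.51% of all 32851 promoters. Neighbouring *Nfkb2* promoters overlap, so a match that they share was counted in both. *Rela*, the gene of the RelA subunit, was the gene with no match. The looser motif GGGNNNNNCC, which the consensus fulfils, was in the promoters of 7 of 7 genes but also in those of 53.5% of all genes. The inhibitors were chosen as genes that NF-κB can induce, so the share of genes with a match is not independent of that choice. A match describes these letters in this window and is not evidence of a bound factor.

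Stretches of 60 bases around the match are printed for the 2 IκB genes, for *Rel*, for *Tnfaip3* and *Tnip3*, and for an intronic stretch of *Nfkb2*, so that genes called higher in IL10RAKO can be read beside genes that did not pass the test. They are written 5′ to 3′ on the strand of the gene, and capitals mark the match to the κB consensus.
Nfkbia, chr12:55492648-55492707, minus strand, upstream of the gene: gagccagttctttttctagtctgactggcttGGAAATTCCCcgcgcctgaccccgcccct
Nfkbie, chr17:45555569-45555628, plus strand, upstream of the gene: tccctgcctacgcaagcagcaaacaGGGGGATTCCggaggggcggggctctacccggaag
Nfkb2, chr19:46305445-46305504, plus strand, intron: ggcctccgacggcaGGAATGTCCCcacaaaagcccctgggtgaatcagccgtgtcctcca
Rel, chr11:23771027-23771086, minus strand, upstream of the gene: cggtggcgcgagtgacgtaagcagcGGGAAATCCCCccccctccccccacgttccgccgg
Tnfaip3, chr10:19015411-19015470, minus strand, intron: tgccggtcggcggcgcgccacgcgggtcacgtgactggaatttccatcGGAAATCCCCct
Tnip3, chr6:65590319-65590378, plus strand, intron: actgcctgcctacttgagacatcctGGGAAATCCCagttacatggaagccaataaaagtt

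The match of *Nfkbia* lay at positions -29 to -20 from the RefSeq start site, that of *Nfkbie* at -106 to -97, that of *Rel* at -92 to -82 and that of *Tnip3* at -54 to -45. *Tnfaip3* had 2 matches before the same start site, at -125 to -116 and at -12 to -3. *Nfkb2* had matches at each of its 3 start sites. Its promoters at start sites 46305695 and 46305930 overlap. The match at 11 to 20 from the former and that at -225 to -216 from the latter are the same bases. Of the 6 genes printed, *Nfkbia*, *Nfkbie*, *Nfkb2* and *Tnfaip3* were called higher in IL10RAKO than in WT, and *Rel* and *Tnip3* were not, so a match was present in genes of both kinds.

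**Figure D1:**
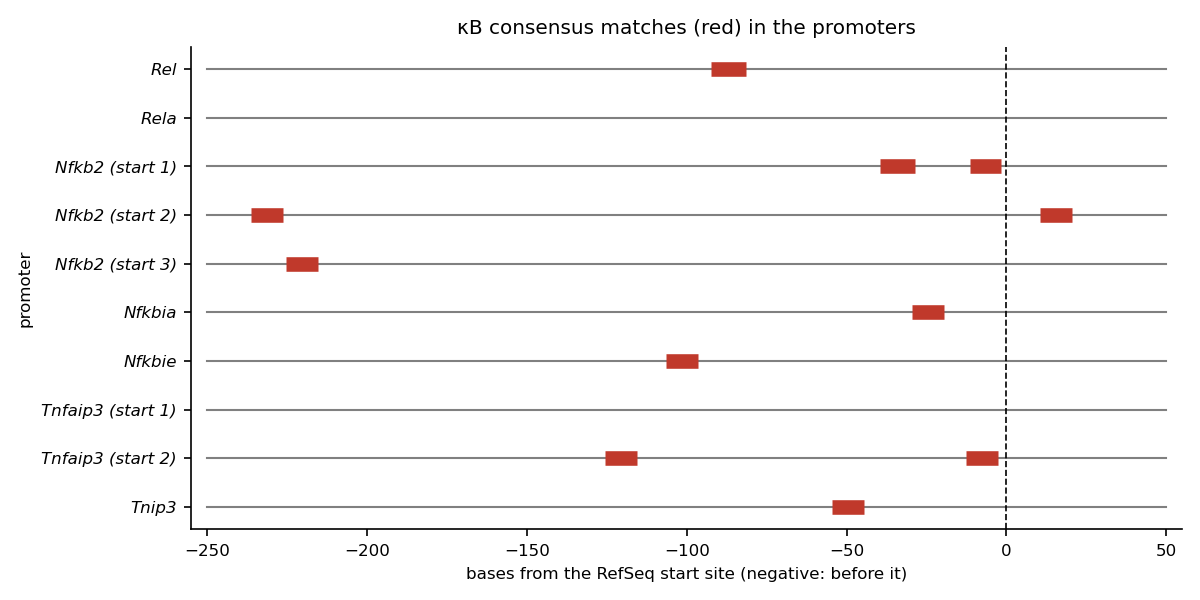
Position of κB consensus matches (red blocks) in the 10 RefSeq promoters of 7 genes, drawn as grey lines from 250 bases before to 50 bases after the start site (dashed line at 0). Matches appear in 8 of the 10 promoters, and the match of *Nfkbia* and one of the *Tnfaip3* matches lie close before the start site, at -29 to -20 and -12 to -3. Overlapping *Nfkb2* promoters share a match, which is drawn in both.

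Of the 10 genes, 6 were higher in IL10RAKO than in WT macrophages and 0 were lower (edgeR quasi-likelihood test, Benjamini-Hochberg adjusted p under 0.05). Across all 13136 genes, 8.7% were called higher and 7.1% lower in that comparison, 15.8% in all. The 6 genes were the subunits *Nfkb2* and *Relb* and the inhibitors *Nfkbia*, *Nfkbie*, *Nfkbiz* and *Tnfaip3*. In the same 6 genes all IL10RAKO mice lay above all WT mice, an arrangement found in that direction in 9.45% of all genes, and the opposite one, seen in 0 of the 10, in 8.78%. An unadjusted p under 0.05 was found for 8 of the 10 genes and 29.1% of all genes. The median log2 fold change was 0.86 over the 10 genes and -0.07 over all genes tested. With library totals in place of TMM, 3 of the 10 genes were called higher, against 4.96% of all genes. With fibroblast markers as a covariate 0 were called, against 0.221% of all genes. In that fit the covariate and the genotype cannot be told apart.

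In DKO against WT macrophages 5 of the 10 genes were called higher and 0 lower, against 9.23% of all genes higher, 9.22% lower and 18.5% in all. They were *Rela*, *Nfkb2*, *Relb*, *Nfkbia* and *Nfkbie*. All DKO mice lay above all WT mice in these 5 genes and in *Nfkbiz*, as in 11.2% of all genes, with 0 of the 10 in the opposite order, as in 11.0%. An unadjusted p under 0.05 was found for 7 of the 10 genes and 31.3% of all genes. The median log2 fold change was 0.70 over the 10 genes and -0.06 over all genes. Library totals in place of TMM gave 4 of the 10 genes called higher, against 5.69% of all genes. With fibroblast markers as a covariate 0 were called, against 0.464% of all genes. Both comparisons use the same 4 WT mice, so they do not repeat each other independently.

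**Figure D2:**
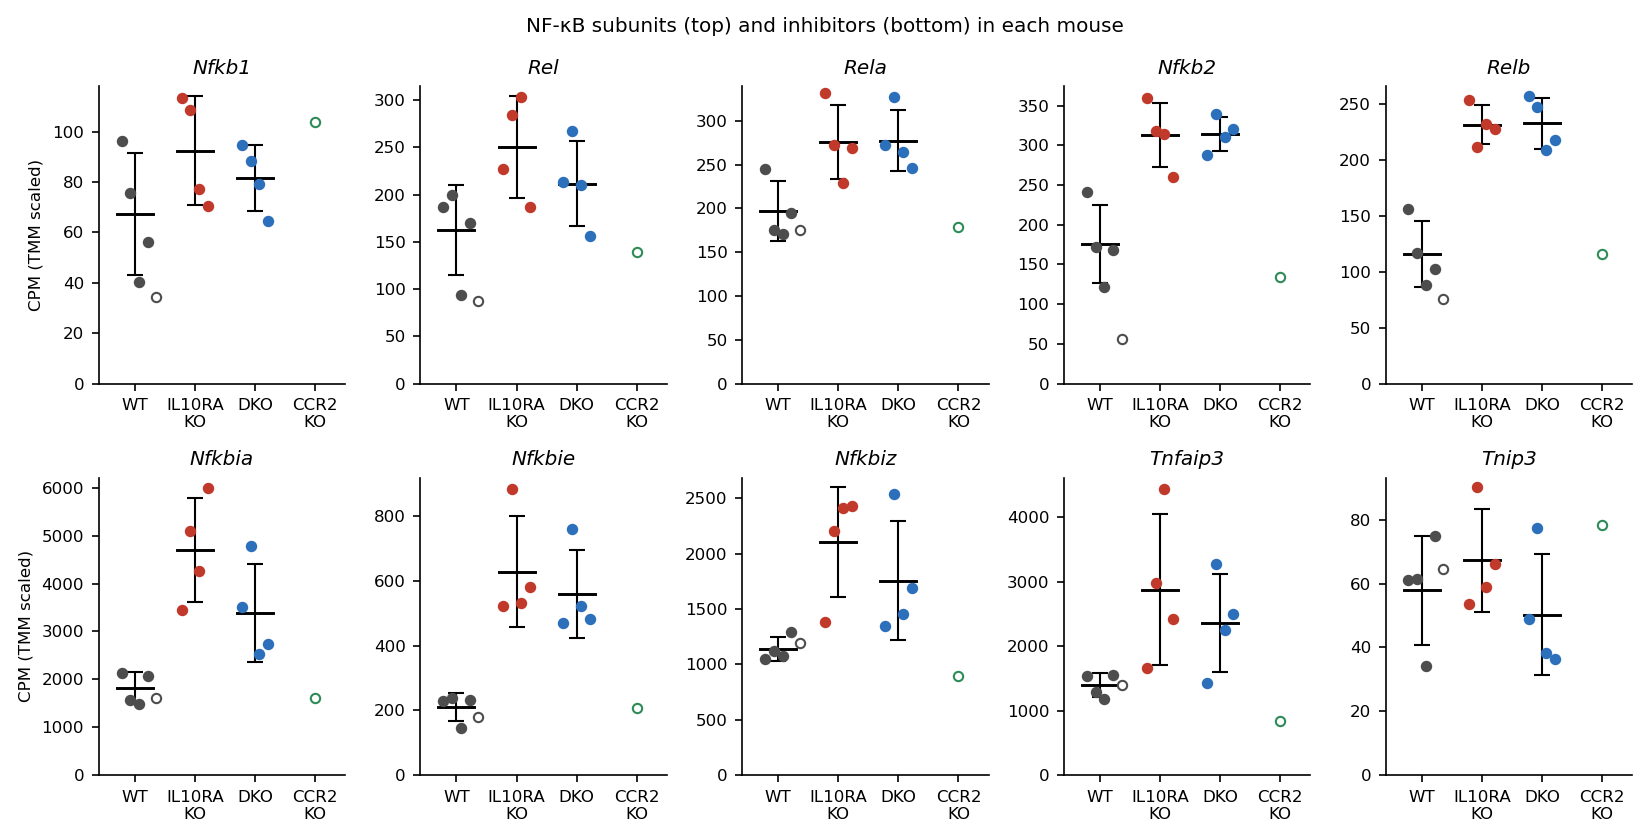
Level of each of the 10 genes in every mouse as TMM-scaled CPM (vertical axes start at 0). Filled points are the mice in the test, black bars the mean ± SD (n = 4), and open points WT mouse 11 (grey) and the CCR2KO mouse (green). All IL10RAKO and DKO mice lie above all 4 tested WT mice for *Nfkb2*, *Relb*, *Nfkbia*, *Nfkbie* and *Nfkbiz*, while the groups overlap for *Nfkb1*, *Rel* and *Tnip3*.

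The 2 subunits of the slower branch had the largest fold changes of the 5 subunits. *Relb* (chr7:19606217-19629438, minus strand) encodes RelB, the partner of p52. It was at 156, 117, 88.5 and 102 CPM in WT mice 4, 5, 10 and 13, at 254, 212, 232 and 228 CPM in IL10RAKO mice 1, 2, 7 and 8, and at 257, 247, 209 and 218 CPM in DKO mice 3, 9, 12 and 14. The highest WT mouse lay below the lowest mouse of either knockout group. The log2 fold change was 1.00 ± 0.172 (SE) in IL10RAKO (adjusted p = 0.00120) and 1.01 ± 0.172 in DKO (adjusted p = 9.74e-04), that is 2.00-fold and 2.01-fold.

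*Nfkb2* (chr19:46304320-46312385, plus strand) encodes p100, both the precursor of p52 and an inhibitor in its own right. Its level was 241, 172, 122 and 168 CPM in the WT mice, 359.7, 318, 315 and 261 CPM in the IL10RAKO mice and 288, 340.2, 310.1 and 321 CPM in the DKO mice, in the order of mice used for *Relb*. WT mouse 4 came nearest to the knockout groups, yet the groups did not overlap. The log2 fold change was 0.83 ± 0.187 in IL10RAKO (adjusted p = 0.00711) and 0.84 ± 0.187 in DKO (adjusted p = 0.00602). The IL10RAKO call was lost in 3 of 24 alternative settings. These were library totals in place of TMM (adjusted p = 0.0530), fibroblast markers as a covariate (0.772) and dendritic cell markers as a covariate (0.145). The DKO call was lost in 1 of 24, with fibroblast markers as a covariate (0.560). Exons of *Nfkb2* share bases with *Psd* on the opposite strand, and since no strand setting is given in the sources used here, reads from the shared bases cannot be told apart. *Psd* was counted at 12.1 ± 6.20 CPM in WT mice, 7.24 ± 3.19 CPM in IL10RAKO mice and 7.22 ± 2.196 CPM in DKO mice.

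*Rela* (chr19:5637483-5648130, plus strand), the transactivating subunit of the main NF-κB dimer, stood at the edge of the threshold in both comparisons. It was at 245, 175, 171 and 195 CPM in the WT mice, 331, 273, 229 and 269 CPM in the IL10RAKO mice and 272, 327, 265 and 246 CPM in the DKO mice. The IL10RAKO range overlapped that of WT through WT mouse 4 and IL10RAKO mouse 7, whereas the lowest DKO mouse lay just above WT mouse 4. The log2 fold change was 0.49 ± 0.165 in IL10RAKO (adjusted p = 0.0604) and 0.50 ± 0.165 in DKO (adjusted p = 0.0497). The call in DKO was lost in 16 of 24 alternative settings, with adjusted p-values from 0.0149 to 0.916 over the 24, and a call in IL10RAKO was gained in 6 of 24 (0.0183 to 1.00). Among them, leaving out any of WT mice 5, 10 and 13, IL10RAKO mice 2 and 8 or any DKO mouse lost the DKO call, and leaving out WT mouse 4 or IL10RAKO mouse 7 gave a call in IL10RAKO (0.0183 and 0.0384).

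*Nfkb1* (chr3:135584655-135691547, minus strand) encodes p105, the precursor of p50. It was at 96.3, 75.8, 40.3 and 56.3 CPM in the WT mice, 114, 108, 77.1 and 70.5 CPM in the IL10RAKO mice and 94.5, 88.1, 79.2 and 64.6 CPM in the DKO mice. The WT mice spread over 2.39-fold, the groups overlapped, and neither difference passed the test (log2 fold change 0.46 ± 0.250, adjusted p = 0.242, and 0.28 ± 0.249, adjusted p = 0.476).

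*Rel* (chr11:23736847-23770970, minus strand) encodes c-Rel, a subunit best known in lymphocytes and myeloid cells. It was at 187, 199.7, 93.3 and 169.7 CPM in the WT mice, 227, 285, 304 and 186 CPM in the IL10RAKO mice and 213, 267, 210.4 and 156 CPM in the DKO mice. Again the groups overlapped. Its log2 fold change of 0.63 ± 0.240 in IL10RAKO had an interval of 0.11 to 1.14 but an adjusted p of 0.0974, and in DKO it was 0.38 ± 0.240 (adjusted p = 0.299).

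Among the inhibitors, the genes of 2 classical IκB proteins rose most. *Nfkbie* (chr17:45555703-45563169, plus strand) encodes IκBε, which holds back dimers with RelA and c-Rel. Its level was 228, 237, 144 and 233 CPM in the WT mice, 521, 882, 529.8 and 582 CPM in the IL10RAKO mice and 470.4, 761, 523 and 481 CPM in the DKO mice. The lowest DKO mouse was at 470.4 CPM and the highest WT mouse at 237 CPM. The rise was 2.99-fold in IL10RAKO (95% interval 2.13 to 4.195, adjusted p = 3.06e-04) and 2.66-fold in DKO (1.89 to 3.73, adjusted p = 6.19e-04), the largest of the 10 genes in both comparisons.

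*Nfkbia* (chr12:55489410-55492647, minus strand) encodes IκBα, the fast-acting inhibitor of the RelA dimer. It was at 2137, 1566, 1479 and 2074 CPM in the WT mice, 3450.5, 5094, 4260.0 and 5989 CPM in the IL10RAKO mice and 3504, 4784, 2528 and 2742 CPM in the DKO mice. All knockout mice were above all WT mice, and DKO mice 12 and 14 were below all IL10RAKO mice. *Nfkbia* rose by a log2 fold change of 1.37 ± 0.232 in IL10RAKO (adjusted p = 0.00101) and 0.90 ± 0.230 in DKO (adjusted p = 0.0135).

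*Nfkbiz* (chr16:55811375-55838899, minus strand) encodes IκBζ, a nuclear IκB protein that can also serve as a coactivator of a set of secondary NF-κB targets. It was at 1050.4, 1121, 1076 and 1293 CPM in the WT mice, 1381, 2205, 2413 and 2433 CPM in the IL10RAKO mice and 1346, 2537, 1455 and 1689 CPM in the DKO mice. IL10RAKO mouse 1 and DKO mouse 3 were close to WT mouse 13, without overlap. The log2 fold change was 0.89 ± 0.221 in IL10RAKO (adjusted p = 0.0131) and 0.63 ± 0.220 in DKO (adjusted p = 0.0614). The IL10RAKO call was lost in 2 of 24 alternative settings. These were library totals in place of TMM (adjusted p = 0.0583) and fibroblast markers as a covariate (log2 fold change 0.14). With that covariate the log2 fold change in DKO was -0.088. The DKO value passed in 5 of 24 alternative settings, among them without IL10RAKO mouse 1 (adjusted p = 0.0342) and without DKO mouse 3 (0.0424), with a range of 0.0222 to 0.989 over the 24.

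*Tnfaip3* (chr10:19000910-19015657, minus strand) encodes A20, a ubiquitin-editing enzyme that shuts off signals on their way to NF-κB. It was at 1539, 1289, 1181 and 1555 CPM in the WT mice, 1661, 2983, 4438 and 2421 CPM in the IL10RAKO mice and 1432, 3273, 2246 and 2493 CPM in the DKO mice. IL10RAKO mouse 1 was just above the WT range and DKO mouse 3 within it, and the IL10RAKO mice spread over 2.67-fold. The log2 fold change was 1.05 ± 0.283 in IL10RAKO (adjusted p = 0.0214) and 0.76 ± 0.282 in DKO (adjusted p = 0.0763). The IL10RAKO call was lost without WT mouse 5 (adjusted p = 0.0549), without WT mouse 10 (0.0579) and without IL10RAKO mouse 7 (0.0617), and over all 24 alternatives its adjusted p ranged from 0.00162 to 1.00. In DKO a call appeared in 5 of 24 alternatives, with DESeq2 (0.0274), with only the 2 genotypes in the fit (0.0348), without IL10RAKO mouse 1 (0.0456), without IL10RAKO mouse 7 (0.0388) and without DKO mouse 3 (0.0321), and the adjusted p ranged from 0.0274 to 0.968 over the 24.

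*Tnip3* (chr6:65525313-65634040, plus strand) encodes ABIN-3, an A20-binding protein. It was at 61.0, 61.3, 34.04 and 75.0 CPM in the WT mice, 53.7, 90.3, 58.9 and 66.2 CPM in the IL10RAKO mice and 48.8, 77.6, 38.2 and 36.5 CPM in the DKO mice. All 3 groups overlapped, with a log2 fold change of 0.22 ± 0.277 in IL10RAKO (adjusted p = 0.651) and -0.20 ± 0.278 in DKO (adjusted p = 0.671). The difference between *Tnip3* and *Tnfaip3* was not tested.

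**Figure D3:**
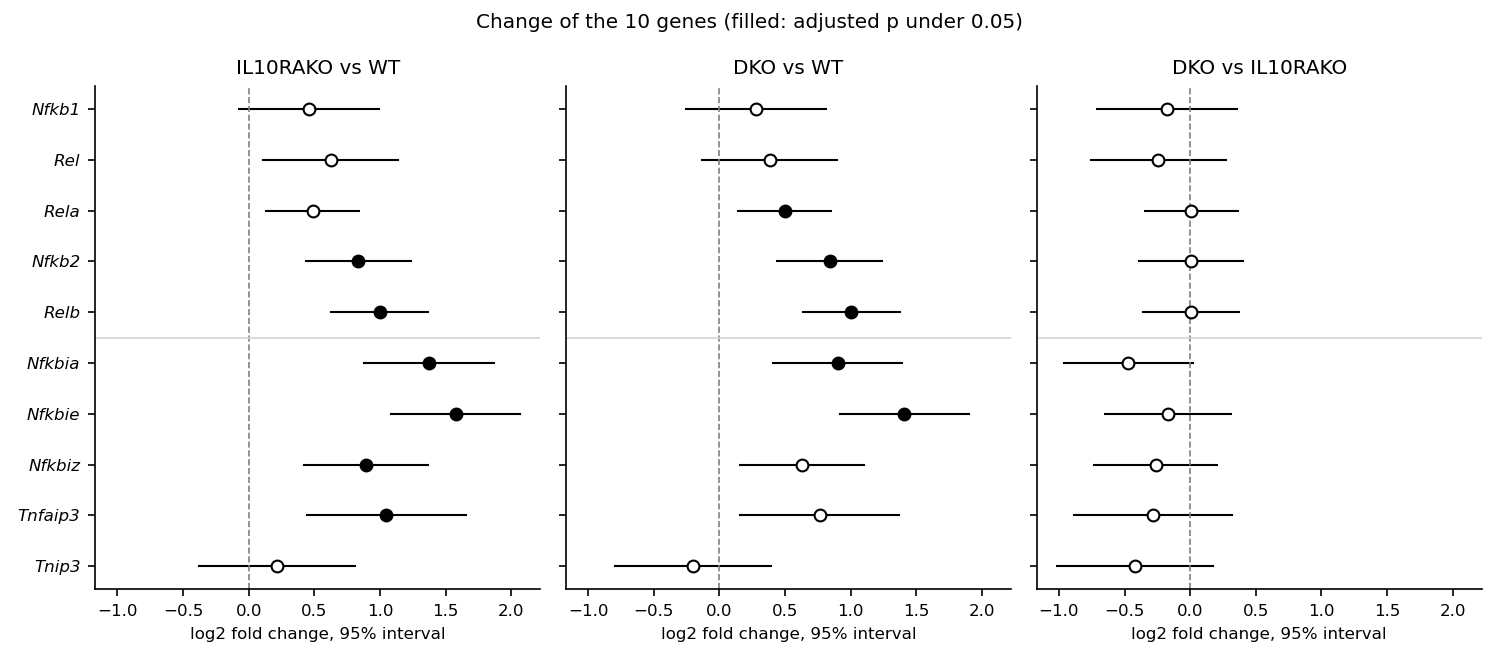
Log2 fold change of each gene with its 95% interval (horizontal axis) in the 3 comparisons, subunits above the grey line and inhibitors below it. Filled points had an adjusted p under 0.05: 6 genes in IL10RAKO against WT, 5 in DKO against WT and 0 in DKO against IL10RAKO.

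Whether the loss of *Ccr2* altered these genes in macrophages that already lacked *Il10ra* was asked by comparing DKO with IL10RAKO. The edgeR test called 0 of the 10 genes, 0 had an unadjusted p under 0.05, and DESeq2 also called 0. Of all genes, 0.0457% were called, 0.0152% higher and 0.0305% lower, and 2.95% had an unadjusted p under 0.05. The 2 groups overlapped in all 10 genes, whereas all DKO mice lay above all IL10RAKO mice in 1.13% of all genes and below them in 1.28%. The 3 subunits that were higher in both knockout groups or at the threshold had nearly equal means. For *Relb* the log2 difference was 0.01 (95% interval -0.36 to 0.37), for *Nfkb2* 0.01 (-0.39 to 0.40) and for *Rela* 0.01 (-0.34 to 0.36). The upper bounds of these intervals stand at 1.29-fold, 1.32-fold and 1.29-fold.

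The 5 inhibitors all had lower means in DKO than in IL10RAKO, by values that did not pass the test. *Nfkbia* showed the largest of these, a log2 difference of -0.47 (interval -0.96 to 0.02). The difference was -0.42 for *Tnip3* (-1.02 to 0.17), -0.28 for *Tnfaip3* (-0.88 to 0.32), -0.26 for *Nfkbiz* (-0.73 to 0.21) and -0.17 for *Nfkbie* (-0.65 to 0.31). DKO mouse 9 was the highest DKO mouse in 5 of 5 inhibitors. *Nfkb1* differed by -0.18 (-0.71 to 0.35) and *Rel* by -0.24 (-0.76 to 0.27). The median over the 10 genes was -0.21, against -0.01 over all genes tested.

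The inhibitors *Nfkbia*, *Nfkbiz* and *Tnfaip3* had the highest levels per length of the 10 genes, and the inhibitor *Tnip3* the lowest. In WT, *Nfkbia* led with 1127 CPM per kb of exon, followed by *Nfkbiz* with 226 and *Tnfaip3* with 193, then *Nfkbie* with 69.1, *Rela* with 64.0, *Nfkb2* with 38.4, *Relb* with 29.9, *Rel* with 21.7, *Nfkb1* with 5.57 and *Tnip3* with 5.30 CPM per kb. The WT ranges of *Nfkbiz* and *Tnfaip3* overlapped, as did those of *Nfkbie* and *Rela*, of *Nfkb2* and *Relb*, of *Relb* and *Rel*, and of *Nfkb1* and *Tnip3*. Between the other neighbours in this order the WT ranges were apart. *Nfkbia* was above *Nfkbiz* in 4 of 4 mice of each genotype. In both knockout groups the order of the means was the same, but the range of *Nfkbie* moved clear of that of *Rela*, with means of 206 and 89.7 CPM per kb in IL10RAKO and 184 and 90.3 in DKO. The ranges of *Relb* and *Rel* also came apart in both knockout groups. Those of *Tnfaip3* and *Nfkbie*, apart in WT, overlapped in both knockout groups, and those of *Rela* and *Nfkb2* overlapped in IL10RAKO.

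The levels per length of *Nfkb1* and *Tnip3* depend on the length used. Divided by their longest transcript instead of all exon bases, the WT means became 16.2 and 12.5 CPM per kb, since these genes have many exon bases outside that transcript, and *Rela* came to lie above *Nfkbie* in WT. *Nfkb1* and *Tnip3* nevertheless kept the last places in all 3 genotypes.

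**Figure D4:**
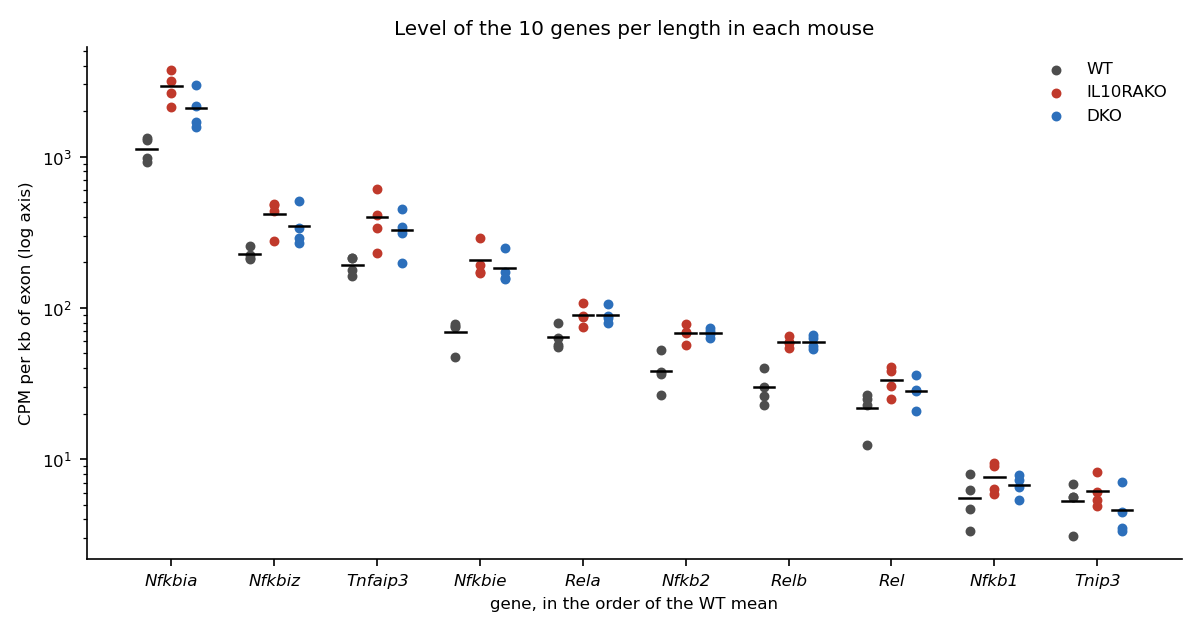
CPM per kb of exon (log axis) of the 10 genes in each mouse of the test, with a bar at the mean of each genotype (n = 4), ordered by the WT mean. *Nfkbia* stands above all other genes in every genotype, and *Nfkb1* and *Tnip3* lie at the bottom with overlapping ranges.

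Summed over the 5 genes, the inhibitors reached 1619.7 ± 255 CPM per kb in WT, 3949 ± 821 in IL10RAKO and 2970.4 ± 832 in DKO. The subunits reached 159 ± 34.98, 259 ± 24.2 and 254 ± 23.95 CPM per kb. The log2 ratio of inhibitors to subunits was 3.15, 3.21, 3.48 and 3.58 in WT mice 4, 5, 10 and 13. It was 3.28, 4.05, 3.97 and 4.34 in IL10RAKO mice 1, 2, 7 and 8, and 3.46, 3.86, 3.28 and 3.45 in DKO mice 3, 9, 12 and 14. IL10RAKO mice 2, 7 and 8 and DKO mouse 9 lay above the range of these 4 WT mice and IL10RAKO mouse 1 within it. WT mouse 11, outside the test, was at 3.86, level with DKO mouse 9. The ratio is given as a description with no test. *Nfkbia* makes up most of the inhibitor sum. As a share of all counted reads, the 10 genes took 0.606% ± 0.0746 in WT, 1.06% ± 0.202 in IL10RAKO and 0.877% ± 0.172 in DKO.

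Single mice stood at the edge of their group in many of the 10 genes. IL10RAKO mouse 1 was the highest of its group in 4 of 5 subunits and the lowest in 5 of 5 inhibitors. DKO mouse 9 was the highest of its group in 3 of 5 subunits and 5 of 5 inhibitors, and WT mouse 10 the lowest of its group in 5 of 5 subunits and 4 of 5 inhibitors. *Rela* and *Relb* varied little for genes of this dataset: only 7.36% and 9.93% of all genes tested had a smaller biological coefficient of variation, against 50.4% for *Tnfaip3* and 50.5% for *Tnip3*.

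In WT mouse 11, *Relb* was at 75.5 CPM and *Nfkb2* at 56.4 CPM, below the other WT mice, and *Nfkbie* at 179 and *Nfkbia* at 1619 CPM, within their range. In the CCR2KO mouse the same 4 genes were at 116, 134, 208 and 1613 CPM, within the range of the WT mice of the test. *Nfkbiz* and *Tnfaip3* were at 894 and 833 CPM there, below every WT mouse, as were 15.6% of all genes tested, so that 2 of 10 is near the share of all genes. With 1 library this difference has no replicate check. Adding WT mouse 11 to the fit gave 7 of the 10 genes called in IL10RAKO and 5 in DKO, against 12.4% and 13.9% of all genes in that fit.

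Other genes of the pathway were examined in 4 lists, with 72 of 73 genes tested. The lists were chosen with results of these samples known, and the target list, which holds 28 of the 72, names genes that had been seen to change in them, so that the direction of these counts is not independent evidence. Over all lists, 41 genes were higher and 1 lower in IL10RAKO, against 8.7% and 7.1% of all genes, and 38 were higher and 2 lower in DKO, against 9.23% and 9.22%. The target list supplied 22 of the 41 and 19 of the 38. Between DKO and IL10RAKO 0 were called (5 at an unadjusted p under 0.05, 1 by DESeq2). Their median log2 fold change was 0.77 in IL10RAKO and 0.69 in DKO, beside the medians of all genes given above.

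Of the 3 other IκB genes, *Nfkbib* and *Bcl3* were higher in both comparisons, against 8.7% and 9.23% of all genes, and *Nfkbid* was called in neither. *Nfkbib*, which encodes IκBβ, was at 148 ± 34.4 CPM in WT mice, 339.9 ± 26.9 CPM in IL10RAKO mice and 249 ± 60.9 CPM in DKO mice (adjusted p = 0.00101 and 0.0182 against WT). *Bcl3*, the gene of a nuclear IκB protein that partners p50 and p52, was at 151 ± 38.9, 265 ± 78.5 and 246 ± 39.3 CPM (adjusted p = 0.0288 and 0.0483). Its call was lost in 9 of 24 alternatives in IL10RAKO, 5 of them among the 12 that leave out a mouse, and in 13 of 24 in DKO, 9 of them among those 12. The *Nfkbib* call was lost in 1 of 24 in IL10RAKO, with the fibroblast covariate, and in 5 of 24 in DKO, with library totals (adjusted p = 0.0762), with the fibroblast covariate (0.935) and without WT mouse 5 (0.0518), WT mouse 10 (0.0536) or DKO mouse 9 (0.0689).

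Of 27 kinases and adaptors that carry the signal to NF-κB, 12 were higher in IL10RAKO and 11 in DKO, with 0 lower in either. Of all genes, 8.7% and 9.23% were called higher. With library totals in place of TMM, 3 of the list were higher and 1 lower in IL10RAKO, and 5 were higher and 1 lower in DKO. In that fit 4.96% and 5.69% of all genes were called higher. *Irak2*, a kinase of the Toll-like and IL-1 receptor pathway, rose 2.81-fold in IL10RAKO (adjusted p = 2.49e-04) and 2.46-fold in DKO (6.12e-04). *Traf1*, an adaptor of TNF receptors, rose 3.55-fold (9.15e-04) and 2.78-fold (0.00361). The median log2 fold change of the list was 0.48 and 0.43.

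Of 14 other negative regulators, 5 were higher and 0 lower in IL10RAKO, against 8.7% and 7.1% of all genes. In DKO 6 were higher and 1 lower, against 9.23% and 9.22% of all genes. With library totals in place of TMM, 3 were higher and 1 lower in IL10RAKO, and 4 were higher and 1 lower in DKO. In that fit 4.96% and 5.69% of all genes were called higher. *Tnip1*, which encodes ABIN-1, another A20-binding protein, rose from 64.9 ± 7.20 CPM in WT to 160.3 ± 44.9 in IL10RAKO (adjusted p = 4.58e-04) and 149 ± 24.8 in DKO (7.66e-04). *N4bp1*, a negative regulator of NF-κB signalling, rose from 45.8 ± 1.74 to 113 ± 25.01 and 110.5 ± 18.7 CPM (2.16e-04 and 2.22e-04). The gene called lower in DKO was *Tnip2*, the gene of ABIN-2, with a log2 fold change of -0.50 (adjusted p = 0.0488), named after its value had been seen. In 16 of 24 alternatives no gene of this list was called lower in DKO, so the *Tnip2* call did not hold there.

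Of 28 target genes tested out of 29 listed, 22 were higher and 1 lower in IL10RAKO, against 8.7% and 7.1% of all genes. In DKO 19 were higher and 1 lower, against 9.23% and 9.22% of all genes. *Il1a*, the gene of interleukin-1α, was at 131 ± 32.98 CPM in WT mice, 2837 ± 926 CPM in IL10RAKO mice and 2777 ± 851 CPM in DKO mice (adjusted p = 7.87e-07 and 6.05e-07). *Cxcl10*, the gene of a chemokine for T cells, was at 70.3 ± 7.43, 746 ± 168 and 579 ± 125 CPM (3.04e-07 and 5.22e-07). The gene called lower was *Ccl2*, which encodes a ligand of CCR2, at 218 ± 85.0 CPM in WT mice, 51.6 ± 29.7 CPM in IL10RAKO mice and 19.1 ± 4.82 CPM in DKO mice (0.00137 and 2.83e-05). Its IL10RAKO call was lost in 2 of 24 alternatives, with the fibroblast and with the dendritic cell covariate. The DKO call was lost in 1 of 24, with the fibroblast covariate. *Ccl2* was also the gene that DESeq2 called between DKO and IL10RAKO (adjusted p = 0.0256, against 0.705 by edgeR). *Ccl20* was not tested, with at most 5 reads in any library.

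**Figure D5:**
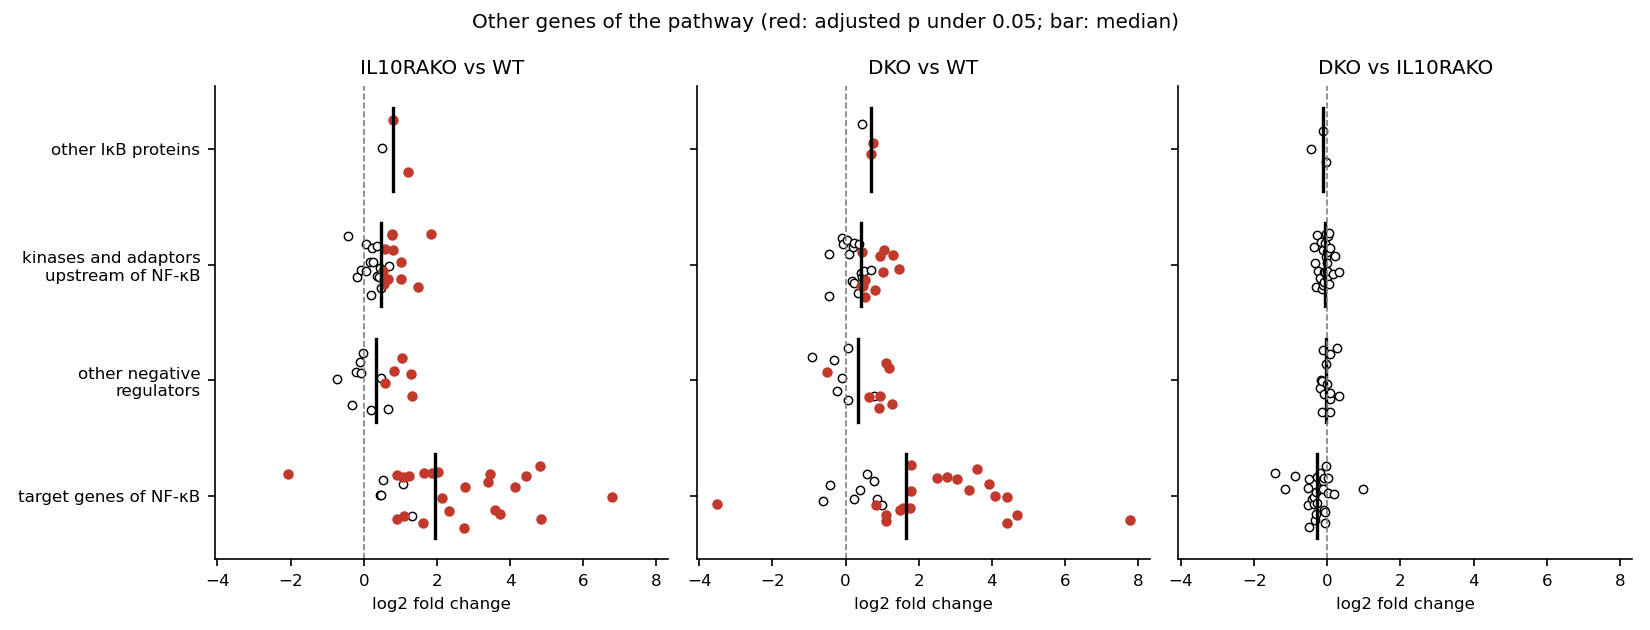
Log2 fold change (horizontal axis) of the 72 tested genes of the 4 pathway lists in the 3 comparisons; points are spread vertically only for legibility, red points had an adjusted p under 0.05 and bars mark the list medians. The target list holds genes chosen with their change in these samples known, so its place relative to the other lists is a description only. *Ccl2* lies on the far left against WT, and no point is red in DKO against IL10RAKO.

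Markers of other cells moved with the genotypes too, although the gates of the sort were set to leave out Ly6G+ neutrophils, CD103+ dendritic cells and fibroblasts, which lack CD45. In bulk RNA of sorted cells, fewer cells of a type and less RNA per cell cannot be told apart. *Ccr7*, a receptor of migratory dendritic cells, was at 506 ± 344 CPM in WT mice, 1529.6 ± 208 CPM in IL10RAKO mice and 1356.5 ± 394 CPM in DKO mice (adjusted p = 0.0139 and 0.0222 against WT). No other dendritic cell marker examined was called higher in both comparisons. Among the 5 WT libraries, mouse 11 included, *Ccr7* ran from 921 CPM in mouse 4 over 655 in mouse 5, 253 in mouse 13 and 194 in mouse 10 to 109.9 in mouse 11. *Nfkb1*, *Nfkb2* and *Relb* followed the same order of mice, which 3.18% of all genes tested did, whereas *Rel*, *Rela* and the 5 inhibitors did not.

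All 6 dendritic cell markers had reads in every IL10RAKO and DKO library, 5 or 6 of them in the WT libraries of the test and 3 in WT mouse 11, where *Zbtb46*, *Flt3* and *Itgae* were at 0. Their summed level was 1402, 917, 309 and 346 CPM in WT mice 4, 5, 10 and 13, 1641, 1756, 1924 and 1540.5 CPM in IL10RAKO mice 1, 2, 7 and 8, and 1821, 1792, 1131 and 1023 CPM in DKO mice 3, 9, 12 and 14, most of it *Ccr7*. *Xcr1* was higher in IL10RAKO and *Cd209a* lower in DKO (2.04, 11.1 and 4.42 CPM for *Xcr1* and 186, 97.0 and 27.3 CPM for *Cd209a* in WT, IL10RAKO and DKO). *Zbtb46*, *Flt3* and *Itgae* were called neither in IL10RAKO (adjusted p = 0.169, 0.642 and 0.192) nor in DKO (0.361, 0.780 and 0.217). With the mean log2 level of the 6 markers as a covariate, a fit added after the data had been seen, 4 of the 10 genes were called in IL10RAKO and 5 in DKO, against 8.92% and 16.3% of all genes in that fit. The 4 were *Relb* (log2 fold change 0.67, adjusted p = 0.0261), *Nfkbia* (1.3998, 0.0107), *Nfkbie* (1.49, 0.00717) and *Nfkbiz* (1.11, 0.0248), and *Nfkb2* and *Tnfaip3* were no longer called (0.52, 0.145 and 1.14, 0.0818). In DKO *Nfkb2* (0.72, 0.00827), *Relb* (0.87, 7.87e-04), *Nfkbia*, *Nfkbie* and *Nfkbiz* passed and *Rela* did not.

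Fibroblast markers separated WT from both knockout groups without overlap, with all 6 lower in both comparisons, against 7.1% and 9.22% of all genes. Their summed level was 294, 577, 301 and 553 CPM in WT mice 4, 5, 10 and 13, 53.7, 22.05, 21.6 and 15.0 CPM in the IL10RAKO mice and 17.2, 16.1, 31.6 and 67.0 CPM in the DKO mice, and *Col3a1* took the most reads. With these markers as a covariate 0 of the 10 genes were called in either comparison (0.221% and 0.464% of all genes, 29 and 61 genes), and in this fit the covariate and the genotype cannot be told apart. Its log2 fold changes in IL10RAKO and DKO were 1.08 and 1.09 for *Nfkb2*, 0.82 and 0.83 for *Relb* and 1.17 and 1.01 for *Nfkbie*, but 0.20 and -0.24 for *Nfkbia* and 0.14 and -0.088 for *Nfkbiz*.

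Neutrophil markers were higher in both knockout groups in 5 of 6 genes tested, against 8.7% and 9.23% of all genes. Their summed level was 91.4 ± 20.9 CPM in WT mice, 230.4 ± 72.5 CPM in IL10RAKO mice and 228 ± 45.2 CPM in DKO mice, most of it *Csf3r*, while *S100a9* and *Camp* had 0 reads in every WT mouse, which allows up to 3 reads per library, and *S100a9* had mean levels of 11.3 and 12.1 CPM in the knockout groups. The monocyte markers *Ly6c2* and *Plac8* were higher in both comparisons, with a summed level for the 5 markers of 743 ± 85.3 CPM in WT mice, 1176 ± 311 CPM in IL10RAKO mice and 554 ± 123 CPM in DKO mice, where *Ccr2* is deleted. WT mouse 10, the lowest in 9 of the 10 genes, had 982 CPM of epithelial markers against 44.5 to 145 in the other WT mice of the test, and WT mouse 11 had 2497 CPM. Markers of T and NK cells summed to 159 to 201 CPM as group means, with *Cd4* lower in both comparisons with WT and *Nkg7* higher in DKO. In WT mice *Cd4* had a mean of 111 CPM, against 1.04, 2.60 and 2.71 CPM for *Cd3d*, *Cd3e* and *Cd3g*. The authors cite work that divides mature intestinal macrophages by CD4 and Tim4. Which cells carried the *Cd4* reads was not tested. Markers of B and plasma cells summed to 786 to 1205 CPM, and 0 of 6 were called in either comparison, against 15.8% and 18.5% of all genes. The part of these cells in the changes of the 10 genes was not tested beyond the covariate fits given here.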

How the data were processed

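The authors sorted the macrophages, made cDNA with SmartSeq v4, sequenced paired-end reads, demultiplexed them with bcl2fastq 2.20 and aligned them to mm10 with STAR 2.5.1b. They deposited raw counts per gene of 14 libraries, whole numbers without normalisation, and edgeR 3.34.0 pseudocounts, a score in which counts are brought to one common depth, for 12 libraries and 13338 genes. Annotation, strand setting and the handling of multi-mapped reads are not given in the sources used here. All columns were used (0 were left without a sample), and the pseudocounts served only in an alternative.

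Counts were filtered with filterByExpr (minimum count 10), scaled with TMM and fitted for 3 genotypes together with edgeR 4.0.16 (glmQLFit and glmQLFTest, legacy deviance) in R 4.3.3. Adjustment for multiple testing (Benjamini-Hochberg) ran over 13136 genes. The 12 libraries were those in the authors' pseudocount table. Standard errors were derived from the quasi-likelihood F statistic and intervals are at 95%. DESeq2 1.42.0 and limma 3.58.1 were alternatives, and the code was tested on simulated data. No pair of libraries of a genotype was alike within sampling noise (chi-square per degree of freedom 31.9 or more). P-values measure the spread between these mice, whose litters are not given. A floor of 3 reads covers counting error only.

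Exon lengths and positions come from GENCODE vM21 (GRCm38) and promoters from RefSeq (GRCm38.p6). Figures used Python 3.11.15 and matplotlib 3.10.9. The members, pathway lists and markers were chosen with earlier results of these data known. From each pathway list the text names up to 2 rising and 2 falling genes called with the smallest adjusted p in IL10RAKO against WT, and for the 3 members with the smallest adjusted p the 3 genes with the nearest profile over the 12 mice. The targeted genes and the cell type markers are also named. The fit with dendritic cell markers as a covariate was chosen after seeing the data. Psd is named because its exons overlap Nfkb2.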

Additional observations from a re-analysis of the deposited data

Results flagged for a closer look

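*Nfkbie* stood apart in 2 mice. In WT, mouse 10 was at 144 CPM and the other 3 mice of the test at 228 to 237 CPM. In IL10RAKO, mouse 2 was at 882 CPM and the other 3 mice at 521 to 582 CPM. These were the 2 cases in 40 groups of values examined, where chance alone gives about 1 in 20, and WT was examined with and without mouse 11. Without either mouse *Nfkbie* was still called higher in IL10RAKO and in DKO.

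The CCR2KO library, which entered no comparison, was above all 5 WT libraries in 2 of the 10 genes, as it was in 17.4% of all genes tested, so this count is near the share of all genes. It was below all 5 in 2 others, *Nfkbiz* and *Tnfaip3*, as in 15.6% of all genes. *Nfkb1* was at 104 CPM there, against 34.5 to 96.3 CPM in WT, and *Tnip3* at 78.4 CPM, against 34.04 to 75.0 CPM. Neither difference has a replicate.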

How the results depend on the processing

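No paired analysis was possible because the labels give the mice of different genotypes no shared numbers, and replicate numbers follow accession order only. Leaving out 1 mouse at a time, 5 to 7 of the 10 genes were called in IL10RAKO and 4 to 7 in DKO against WT, and 0 between DKO and IL10RAKO. The number of all genes called ranged from 1485 to 2554, from 1691 to 2995 and from 4 to 10 in the 3 comparisons, the 10 without IL10RAKO mouse 2, against 6 with all mice. DESeq2 called 24 genes between DKO and IL10RAKO, 1 of them in the pathway lists. With library totals in place of TMM the median of all genes moved to -0.38 in IL10RAKO and -0.32 in DKO, the share of calls that were higher fell from 55.1% to 23.8% and from 50.0% to 25.9%, and 3 of the 10 genes were called in IL10RAKO and 4 in DKO, against 2735 and 2888 of the 13136 genes tested (4.96% and 5.69% of all genes were called higher). In IL10RAKO *Nfkb2* (adjusted p = 0.0530), *Nfkbiz* (0.0583) and *Tnfaip3* (0.0716) missed the threshold. Relative to the median of all genes, the members' median was 0.93 in IL10RAKO under both scalings. With that scaling *Tnip3* changed sign in IL10RAKO (-0.10), as did *N4bp1* (0.035) and *Il1a* (0.028) between DKO and IL10RAKO. The fibroblast covariate left 29 and 61 genes called in IL10RAKO and DKO, 0 and 0 of the 10 genes and 1 and 2 pathway genes, with sign changes for *Tnip3* in IL10RAKO (-0.55), *Nfkbia* (-0.24) and *Nfkbiz* (-0.088) in DKO and *Il1a* (0.012) between DKO and IL10RAKO. The dendritic cell covariate, chosen after seeing the data, left 1172 genes called in IL10RAKO, with sign changes for *Nfkb1* in IL10RAKO (-0.10) and for *Nfkb1* (0.16) and *Bcl3* (0.086) between DKO and IL10RAKO. Without 1 mouse at a time, log2 differences between DKO and IL10RAKO changed sign for *Bcl3* (-0.24 to 0.084), *Il1a* (-0.26 to 0.15), *Irak2* (-0.35 to 0.021), *N4bp1* (-0.14 to 0.095), *Nfkb2* (-0.071 to 0.082), *Nfkbie* (-0.35 to 0.040), *Rela* (-0.078 to 0.11), *Relb* (-0.044 to 0.057), *Tnfaip3* (-0.48 to 0.020) and *Tnip1* (-0.24 to 0.091). The cause of these changes was not tested. With 4 mice a group, the width of the intervals limits what could be detected between DKO and IL10RAKO.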

Other observations

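The genes whose profiles over the 12 mice lay nearest to the 3 genes with the smallest adjusted p were found by the Euclidean distance between centred log2 CPM values. Nearest to *Nfkbie* were *Rabgef1*, *Chd7* and *Slfn2*, at distances of 0.57, 0.58 and 0.60, against a median distance of 3.09 over all genes tested. Nearest to *Nfkbia* were *Rab20*, *Srgn* and *Nfkbib* (0.57, 0.73 and 0.76, median 2.73). Nearest to *Relb* were *Gosr2*, *Adap1* and *Btg1* (0.39, 0.39 and 0.48, median 2.42). The mice of a genotype share that genotype, and the distances are given as a description.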
